A study of Mus musculus with 6 samples.

Results

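Rod phototransduction genes, 9 in number, were followed through RNA sequencing libraries that are labelled as retinal endothelial cells. The genes were chosen by symbol, Gnat1, Gngt1, Pde6a, Pde6b, Pde6g, Cnga1, Sag, Rcvrn and Prph2, and all 9 were found among the 24421 rows of the table. The mice were of the C57BL/6 background, and their retinas were taken on postnatal day 7. The 3 mutant libraries carried the genotype Anxa3 fl/fl;Tie2-Cre and the 3 control libraries Anxa3 fl/fl, so floxed alleles of annexin A3 were shared by both groups and only the mutants carried the recombinase. Tie2-Cre is active in endothelial cells and also in blood-lineage cells, and it is not driven in rods. The labels do not say how many pups went into a library, so the spread between libraries may be in part technical. Values are FPKM, which scale the fragments of a gene by its length and by the depth of the library.

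Rods are the most numerous cells of the mouse retina and respond to dim light. In a rod, a light-activated visual pigment switches on the G protein transducin. Transducin removes the brake on a phosphodiesterase, the enzyme lowers cyclic GMP, and cation channels gated by that nucleotide close. Arrestin and recoverin belong to the shut-off and adaptation of the response, and peripherin-2 shapes the rims of the membrane discs on which the cascade sits. At the age sampled, rods are still maturing. These genes are not known as endothelial genes, so their level in libraries labelled as endothelial was set beside endothelial content in each library. In bulk samples, fewer cells of a type and less RNA per cell cannot be told apart.

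RefSeq promoter windows on GRCm38.p6 were at hand for 5 of the 9 genes, Sag, Cnga1, Pde6b, Gngt1 and Prph2. The 250 bases before the annotated start were searched on both strands for TAATCC, the core motif of the photoreceptor factor CRX, and for TGCTGA, a partial motif of the rod factor NRL. The CRX letters were present in 3 of the 5 windows and in 6.25% of all 32851 windows of that length. The NRL letters were present in 2 of the 5 windows and in 16.1% of all windows. The motifs do not overlap each other in these windows, and a match is a description of letters only. The upstream sequence of Sag, the most abundant of the genes (chr1:87803430-87803679, plus strand), and that of Pde6b, the catalytic subunit with the higher level (chr5:108388123-108388372, plus strand), are shown 5′ to 3′ with the matches in capitals. In Sag the capitals mark TGCTGA at bases -187 to -182 and the reverse complement of TAATCC at -87 to -82, and in Pde6b they mark TGCTGA at -8 to -3.
Sag: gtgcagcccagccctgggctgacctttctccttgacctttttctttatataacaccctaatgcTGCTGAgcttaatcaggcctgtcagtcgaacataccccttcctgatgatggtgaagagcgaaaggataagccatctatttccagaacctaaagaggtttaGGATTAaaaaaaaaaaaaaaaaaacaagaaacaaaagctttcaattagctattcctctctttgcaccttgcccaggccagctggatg
Pde6b: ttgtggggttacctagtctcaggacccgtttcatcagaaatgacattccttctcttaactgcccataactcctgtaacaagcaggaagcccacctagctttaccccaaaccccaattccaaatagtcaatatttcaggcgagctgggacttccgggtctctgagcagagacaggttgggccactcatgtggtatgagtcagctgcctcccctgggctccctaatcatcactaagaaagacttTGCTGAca
Neither motif was found in the window of Prph2, and those of Cnga1 and Gngt1 each held the CRX letters in 1 place. The windows of these 3 genes overlap exons annotated in GENCODE M21 and are not shown.

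The depth by which the FPKM had been scaled, read from their steps, was 21062142 to 31137828 reads, and between 13332 and 13695 genes reached 1 FPKM in each. Reads recovered from the FPKM steps numbered at least 884 for each of the 9 genes in each library, and up to 61860 for Sag. Anxa3, the targeted gene, measured 9.78, 12.5 and 15.1 FPKM in mutant replicates 1, 2 and 3, against 18.7, 17.7 and 43.4 FPKM in control replicates 1, 2 and 3. The groups did not overlap for Anxa3, and a two-sided exact permutation test gave p = 0.1, the smallest value 20 arrangements allow. Endothelial markers were present in every library, while markers of pigment epithelium and lens were low, at a mean log2(FPKM + 1) of 0.45 to 0.92 in mutants and 0.64 to 0.73 in controls. The labels letter the libraries as B, E and F for mutant replicates 1, 2 and 3 and A, C and D for control replicates 1, 2 and 3, without saying what the letters stand for.

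The 9 rod genes were detected in every library, in mutants and in controls alike. None of the 9 passed the test for a difference between the genotypes. Sag stood between place 4 and place 9 of all rows by FPKM, depending on the library, Prph2 between 17 and 22 and Pde6b between 28 and 38. Gnat1 stood between 380 and 733, and Pde6a, the lowest of the 9, between 1231 and 2346. Of the endothelial genes, Cldn5 stood between 42 and 220, Cdh5 between 216 and 1048 and Pecam1 between 275 and 1142. Libraries labelled as endothelial cells thus held Sag, Prph2 and Pde6b at higher places than these endothelial genes. The 9 genes together held 1.12%, 0.852% and 0.888% of all FPKM in mutant replicates 1, 2 and 3, against 1.06%, 0.993% and 0.709% in control replicates 1, 2 and 3. Control replicate 3 had the lowest share of the 6 libraries and mutant replicate 1 the highest.

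**Figure D1:**
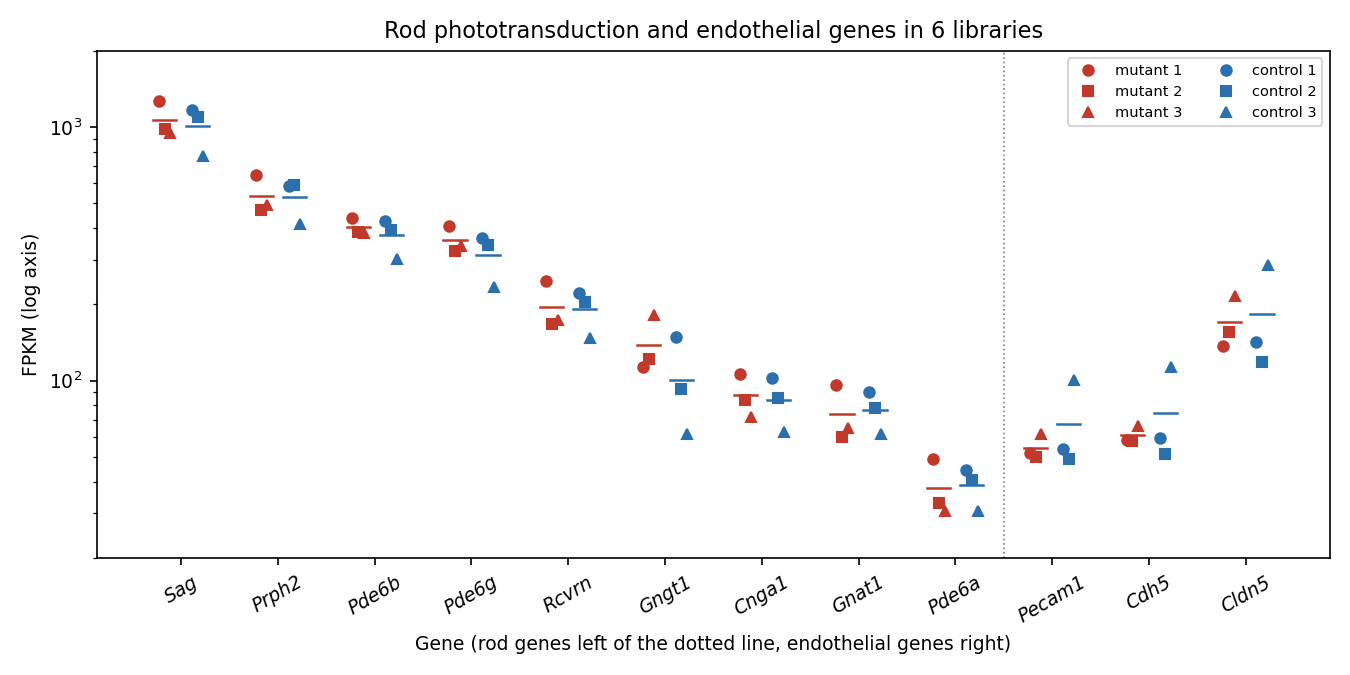
FPKM on a log axis of the 9 rod genes and of 3 endothelial genes, with 1 point per library and a short line at each group mean (n = 3 each). The rod genes run from Sag, at 772 to 1265 FPKM, down to Pde6a, at 30.7 to 49.2 FPKM, and the mutant and control points overlap for every gene drawn.

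The transducin subunits Gnat1 and Gngt1 differed in their pattern over the libraries. Gnat1, the rod transducin alpha subunit that carries the signal from the pigment to the phosphodiesterase, measured 95.8, 60.1 and 65.2 FPKM in mutant replicates 1, 2 and 3, against 90.0, 77.9 and 61.9 FPKM in control replicates 1, 2 and 3. The gene lies on the minus strand at chr9:107674474-107679712 (GRCm38, GENCODE M21, as for all locations given). Its means were 73.7 ± 19.3 FPKM in mutants and 76.6 ± 14.1 FPKM in controls (SD, n = 3 each), and the lowest library was mutant replicate 2. Gngt1 (chr6:3993792-3997436, plus strand), the rod transducin gamma subunit that helps to anchor the complex in the membrane, measured 113, 122 and 181 FPKM in mutant replicates 1, 2 and 3, against 148, 92.9 and 61.5 FPKM in control replicates 1, 2 and 3. Its means were 138.5 ± 37.1 FPKM in mutants and 101 ± 44.0 FPKM in controls (SD, n = 3 each). Mutant replicate 3 was the highest library for Gngt1 and control replicate 3 the lowest, and control replicate 1 lay above mutant replicates 1 and 2. The ratio of Gngt1 to Gnat1 in FPKM was 1.18, 2.02 and 2.78 in mutant replicates 1, 2 and 3, against 1.65, 1.19 and 0.994 in control replicates 1, 2 and 3. The highest 2 ratios were thus in mutant libraries, and mutant replicate 1 fell within the range of the controls.

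The phosphodiesterase subunits differed widely in level per length. Pde6b (chr5:108388391-108432397, plus strand), the beta catalytic subunit, measured 439.8, 385 and 381 FPKM in mutant replicates 1, 2 and 3, against 425, 394 and 303 FPKM in control replicates 1, 2 and 3. Pde6a (chromosome 18), the alpha catalytic subunit with which it forms the rod enzyme, measured 49.2, 32.9 and 30.7 FPKM in mutants, against 44.6, 40.7 and 30.7 FPKM in controls, in the same order of replicates. Control replicate 3 was the lowest library for both, for Pde6a level with mutant replicate 3, and the groups overlapped. Pde6b exceeded Pde6a 8.94, 11.7 and 12.4-fold in mutant replicates 1, 2 and 3, against 9.54, 9.68 and 9.86-fold in control replicates 1, 2 and 3. The excess was thus present in every library, although the subunits enter the enzyme in equal number. Pde6g (chr11:120447605-120453500, minus strand), the small inhibitory subunit that transducin displaces, measured 407, 324 and 341 FPKM in mutants, against 365, 343 and 235 FPKM in controls. Mutant replicate 1 was the highest library and control replicate 3 the lowest for Pde6g too. Mean levels were 402 ± 32.7 FPKM in mutants and 374 ± 63.5 FPKM in controls for Pde6b, 37.6 ± 10.1 FPKM in mutants and 38.7 ± 7.16 FPKM in controls for Pde6a, and 358 ± 43.8 FPKM in mutants and 314 ± 69.3 FPKM in controls for Pde6g (SD, n = 3 each).

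Cnga1 (chr5:72603696-72644275, minus strand), a subunit of the channel that closes when cyclic GMP falls, measured 107, 84.1 and 72.0 FPKM in mutant replicates 1, 2 and 3, against 103, 85.7 and 62.7 FPKM in control replicates 1, 2 and 3. Its means were 87.6 ± 17.6 FPKM in mutants and 83.7 ± 20.1 FPKM in controls (SD, n = 3 each). Control replicate 3 was again the lowest library, and the groups overlapped.

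Genes of shut-off and disc structure held the highest level per length, that of Sag. Sag (chr1:87803680-87845158, plus strand), the arrestin that caps the activated pigment, measured 1265, 979 and 951 FPKM in mutant replicates 1, 2 and 3, against 1167, 1094 and 772 FPKM in control replicates 1, 2 and 3. Its means were 1065 ± 174 FPKM in mutants and 1011 ± 210.3 FPKM in controls (SD, n = 3 each). Rcvrn (chr11:67695326-67703333, plus strand), the calcium sensor recoverin, measured 246, 167 and 174 FPKM in mutants, against 222, 204 and 148 FPKM in controls. Prph2 (chr17:46910459-46924933, plus strand), the disc rim protein, which cones use as well, measured 646, 472 and 494 FPKM in mutants, against 586, 591 and 413 FPKM in controls. For all 3 genes mutant replicate 1 was the highest and control replicate 3 the lowest library, and control replicates 1 and 2 lay above mutant replicates 2 and 3. Means were 196 ± 43.9 FPKM in mutants and 191 ± 38.8 FPKM in controls for Rcvrn, and 537 ± 94.7 FPKM in mutants and 529.97 ± 101 FPKM in controls for Prph2 (SD, n = 3 each). Recoverin and arrestin are also made by cones in the mouse, so these genes are not exclusive to rods.

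No rod gene passed the comparison of mutant with control libraries. Anxa3, the targeted gene, did not pass it either, so the absence of calls does not show equal levels. In the limma fit over 13622 genes, 0 of the 9 had an adjusted p under 0.05, and 0 genes in all did, or 0.0% of those tested. At an unadjusted p under 0.05 there were 0 of 9 rod genes and 165 of all genes, or 1.21% (0.896% higher and 0.316% lower in mutants). Groups did not overlap for 0 of 9 rod genes, and for 4.35% of all genes, 2.79% higher and 1.56% lower in mutants. The log2 difference was highest for Gngt1, at 0.51 with a standard error of 0.314 and a 95% confidence interval from -0.21 to 1.24. It was 0.20 for Pde6g (-0.28 to 0.68), 0.12 for Pde6b (-0.31 to 0.54), 0.09 for Sag (-0.58 to 0.75), 0.07 for Cnga1 (-0.40 to 0.55), 0.03 for Rcvrn (-0.45 to 0.52) and 0.02 for Prph2 (-0.51 to 0.56). It was -0.05 for Pde6a (-0.52 to 0.41) and -0.07 for Gnat1 (-0.54 to 0.40). The median of the 9 was 0.07, beside -0.01 over all genes tested, with 7 of 9 rod genes and 6469 of 13622 genes above 0. The limma adjusted p was 0.9998 for each of the 9.

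Single libraries decided the sign of most of these small differences. Without control replicate 3, 7 of the 9 were negative and the mean difference over the 9 was -0.08, against 0.10 with all libraries. Without mutant replicate 1, 6 of the 9 were negative and the mean was -0.01. Without mutant replicate 2, mutant replicate 3 or control replicate 1, all 9 were positive. Gngt1 and Pde6g stayed positive under each omission, from 0.20 to 0.83 for Gngt1 and from 0.01 to 0.32 for Pde6g. With quantile scaling 5 of the 9 were positive, and with limma array weights, which give each library a weight by its fit, 1 of the 9 was.

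**Figure D2:**
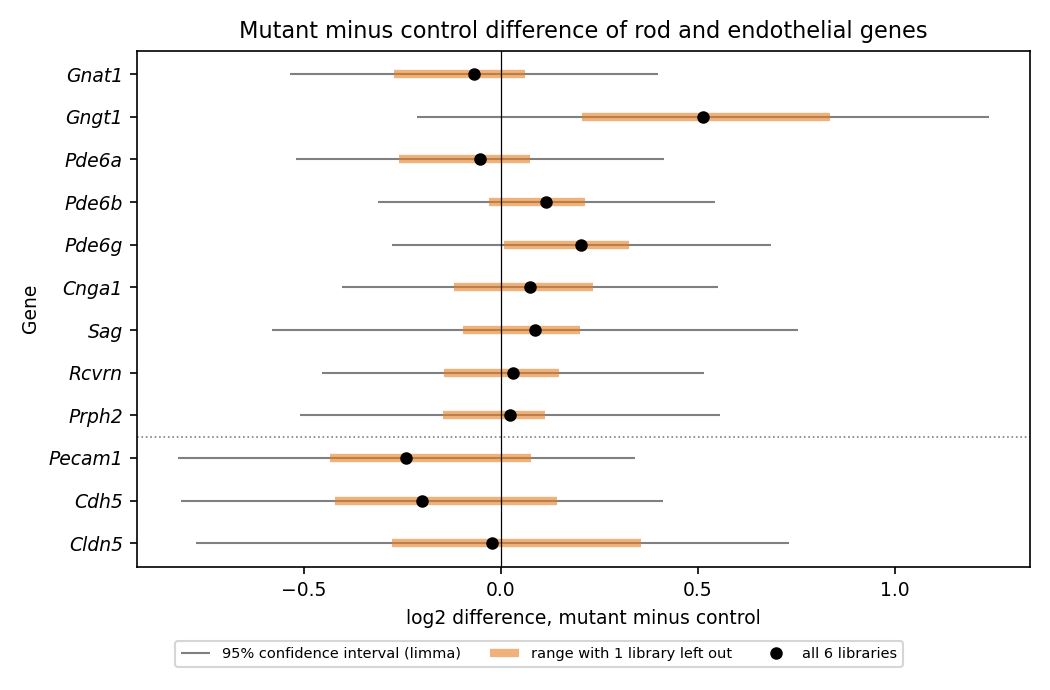
The log2 difference, mutant minus control, of the 9 rod genes and 3 endothelial genes. Black points give the fit to all 6 libraries, grey lines its 95% confidence interval and orange bars the range when 1 library is left out; every confidence interval crosses 0, and Gngt1 lies farthest from it at 0.51.

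The rod genes other than Gngt1 shared a pattern across libraries, and Gngt1 departed from it. All genes but Gngt1 were highest in mutant replicate 1, beside 23.5% of all genes tested, and all but Gnat1 were lowest in control replicate 3, beside 24.3% of all genes tested. Over the 6 libraries the 28 pairs without Gngt1 had Pearson correlations from 0.74 to 0.99 on the log2(FPKM + 1) scale, and the 8 pairs with Gngt1 from 0.13 to 0.69. All genes of a library share its RNA and its depth, so these correlations are a description. In mutant replicate 3, Gngt1 lay 0.67 above its own mean on the log2 scale, whereas the other 8 lay between -0.28 and 0.04 of theirs. In control replicate 3 it lay 0.87 below its mean (-0.87), and the other 8 between -0.49 and -0.25. The highest library exceeded the lowest 2.94-fold for Gngt1 and 1.45 to 1.73-fold for the other 8, beside a median of 1.30-fold over 7566 genes with a mean of at least 10 FPKM.

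**Figure D3:**
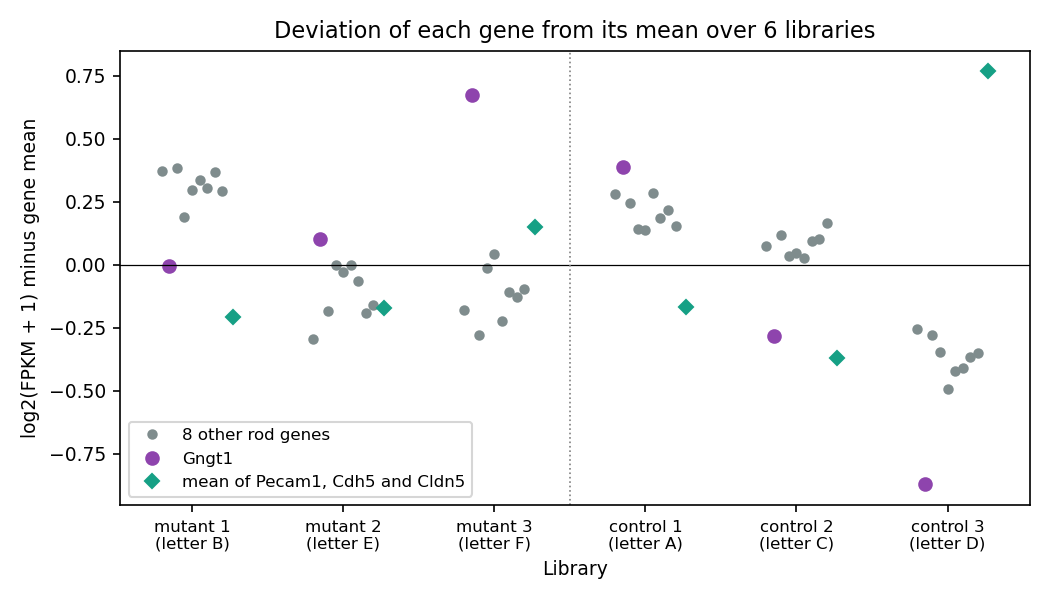
Deviation of each gene from its own mean over the 6 libraries, in log2(FPKM + 1), with mutant libraries on the left and control libraries on the right. The 8 other rod genes (grey) all lie above 0 in mutant replicate 1 and control replicates 1 and 2 and all below 0 in control replicate 3, whereas Gngt1 (purple) reaches 0.67 in mutant replicate 3 and -0.87 in control replicate 3, where the mean of Pecam1, Cdh5 and Cldn5 (green) is highest.

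Set beside endothelial content, 8 of the 9 rod genes, all but Gnat1, were lowest in the library where the endothelial genes were highest. Endothelial content was taken from Pecam1 and Cdh5, adhesion molecules of endothelial junctions, and Cldn5, the tight junction protein of the blood-retina barrier. Pecam1 measured 52.0, 50.1 and 61.5 FPKM in mutant replicates 1, 2 and 3, against 54.0, 48.9 and 100.3 FPKM in control replicates 1, 2 and 3. Cdh5 measured 58.6, 57.9 and 66.4 FPKM in mutants, against 59.2, 51.2 and 113 FPKM in controls. Cldn5 measured 138, 156 and 217 FPKM in mutants, against 143, 119 and 287 FPKM in controls. Control replicate 3 was the highest library for all 3, and control replicates 1 and 2 lay below the highest mutant library, mutant replicate 3, for each. The log2 differences were -0.24 for Pecam1, -0.20 for Cdh5 and -0.02 for Cldn5, with a limma adjusted p of 0.9998 each, and without control replicate 3 they were 0.08, 0.14 and 0.36. Sag exceeded Pecam1 24.3, 19.6 and 15.5-fold in mutant replicates 1, 2 and 3, against 21.6, 22.4 and 7.70-fold in control replicates 1, 2 and 3.

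The mean log2(FPKM + 1) of the 9 rod genes was 7.88, 7.50 and 7.56 in mutant replicates 1, 2 and 3, against 7.82, 7.64 and 7.17 in control replicates 1, 2 and 3. The mean of the 3 endothelial genes on the same scale was 6.25, 6.28 and 6.60 in mutants, against 6.29, 6.08 and 7.22 in controls. The rod level thus exceeded the endothelial level by 1.63, 1.22 and 0.96 in mutants, against 1.53, 1.55 and -0.05 in controls. Control replicate 3 was the library in which the rod level did not exceed the endothelial level. The excess averaged 1.27 ± 0.34 in mutants and 1.01 ± 0.92 in controls (SD, n = 3 each), a difference of 0.26 that was smaller than the spread among controls. Without control replicate 3 the difference was -0.27. All 18 genes of a wider pan-endothelial list had a negative mutant minus control difference, with a median of -0.14 and 0 called in limma, and 17 of the 18 had a positive one without control replicate 3. With those genes as the measure the excess was 3.07, 2.58 and 2.41 in mutants, against 3.01, 2.91 and 1.40 in controls.

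**Figure D4:**
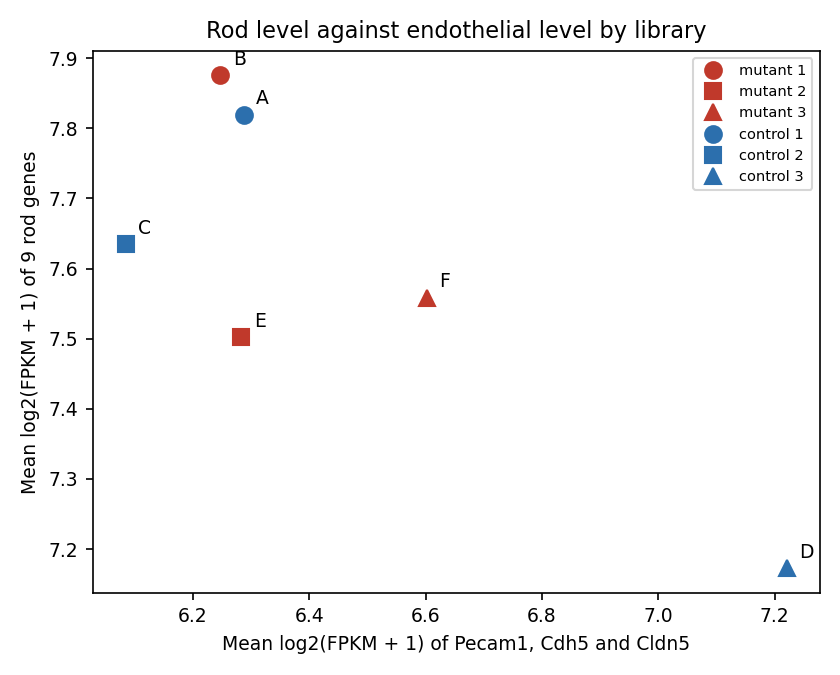
Mean log2(FPKM + 1) of the 9 rod genes against that of Pecam1, Cdh5 and Cldn5, with 1 point per library and its letter from the labels. Control replicate 3 (D) stands alone at 7.22 on the endothelial axis and 7.17 on the rod axis, and the other 5 libraries lie between 6.08 and 6.60 and between 7.50 and 7.88.

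Across the 6 libraries each rod gene had a negative correlation with the endothelial mean, which rested on the libraries at the far end of the endothelial axis. Pearson's r was -0.86 for Sag (exact permutation p = 0.0306, adjusted 0.250), with a Spearman's rho of -0.71 (exact permutation p = 0.136, adjusted 0.614), and over the 9 genes r ran from -0.88 for Pde6b to -0.49 for Gngt1 (exact permutation p from 0.0278 to 0.353). Spearman's rho ran from -0.77 for Prph2 to 0.14 for Gngt1 (exact permutation p from 0.103 to 0.803). The same relation was computed for 13622 genes, and the smallest adjusted exact permutation p of a rod gene was 0.244. Of all genes 53.4% had a negative r and 28.9% an r under -0.5, beside 9 and 8 of the 9 rod genes. Without control replicate 3 and mutant replicate 3, the libraries farthest from the median, r was 0.02 for Sag, ran from -0.30 to 0.87 over the 9 and was negative for 4 of them. The libraries that remain span only 6.08 to 6.29 on the endothelial mean. With so narrow a range, the lost correlation cannot decide whether the relation holds among them. The relation was not tested within sets of 3 libraries, which are too small.

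The libraries were also divided by letter into A to C and D to F, a division that the labels do not give and that was chosen with earlier results of these data known. Within both sets most rod genes were higher in mutants, counts that follow from 1 library in each. Among the libraries lettered A to C, the mutant lay above both controls for 8 of 9 rod genes, all but Gngt1, beside 36.7% of all genes tested. Among those lettered D to F, both mutants lay above the control for 8 of 9, all but Gnat1, beside 38.6% of all genes tested. Each set holds 1 library of one genotype, so neither can be tested on its own. The first set's difference rests on mutant replicate 1, the highest library for 8 of 9 rod genes. The whole of the second set's difference is measured against control replicate 3, the lowest for 8 of 9. The counts above therefore restate those libraries and are not separate support for a difference. Without mutant replicate 1, 6 of the 9 differences were negative, and without control replicate 3, 7 were. With the division as a block, all 9 differences were positive in limma, from 0.10 for Gnat1 to 0.60 for Gngt1, and 0 genes were called. The smallest adjusted p among the 9 was then 0.718. Microglia markers had their lowest mean log2 level in mutant replicate 1, the library with the highest rod level, at 2.07, against 2.58 to 3.05 in the other libraries. Pericyte and smooth muscle markers had their highest in control replicate 3, at 4.01, against 3.22 to 3.59 elsewhere. Their part in the rod values was not tested.

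None of the other rod pathway genes passed the test between the genotypes. Of 26 such genes, all tested, 0 passed the limma test, 17 had a positive and 9 a negative difference, and the median was 0.06, beside -0.01 over all genes. Without control replicate 3, 6 were positive and 20 negative, with a median of -0.07. Pdc, the phosducin that binds transducin's beta and gamma subunits, measured 709 ± 133 FPKM in mutants and 667 ± 222 FPKM in controls (SD, n = 3 each). Gnb1, the transducin beta subunit, which many other cells make too, measured 678 ± 187 FPKM in mutants and 688 ± 119 FPKM in controls. The genes with the smallest unadjusted p were Rdh8, a retinol dehydrogenase of the outer segment (log2 difference 0.27), Tulp1, a tubby-like protein of photoreceptor protein transport (0.24), Guca1a, an activator of guanylate cyclase (0.33), and Cngb1, the partner of Cnga1 in the channel (0.13). Groups did not overlap for 1 of the 26, beside 4.35% of all genes. This was Tulp1, at 218, 226 and 262 FPKM in mutant replicates 1, 2 and 3, against 218, 211 and 170 FPKM in control replicates 1, 2 and 3. Its lowest mutant value and highest control value differed by less than 1 FPKM.

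Of 10 transcription factors of photoreceptors, 0 passed the limma test between the genotypes. Of these, 3 had a positive and 7 a negative difference, with a median of -0.04. Without mutant replicate 3 there were 7 positive and 3 negative, with a median of 0.11. Without mutant replicate 1 there were 2 positive and 8 negative (median -0.19), and without control replicate 3 there were 3 and 7 (median -0.19). Omitting mutant replicate 2 left 4 positive and 6 negative, and omitting control replicate 1 or 2 left 6 and 4. Nr2e3, which represses cone genes in rods, measured 711 ± 86.5 FPKM in mutants and 651 ± 95.2 FPKM in controls, Crx, which activates photoreceptor genes, 553 ± 102 FPKM in mutants and 555 ± 106 FPKM in controls, and Nrl, which drives rod fate, 457 ± 71.5 FPKM in mutants and 435 ± 75.3 FPKM in controls (SD, n = 3 each). Differences were 0.13 for Nr2e3, 0.00 for Crx and 0.08 for Nrl. The smallest unadjusted p belonged to Rxrg (log2 difference 0.20), Mef2c (-0.29), Esrrb (-0.16) and Prdm1 (-0.12). Mef2c, which endothelial cells also express, was highest in control replicate 3.

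The cone counterparts of these genes had positive differences throughout, and none passed the test. All 11 cone genes had a positive difference, with a median of 0.21, beside -0.01 over all genes, and 0 passed in limma. A pair of the 11, Gngt2 and Arr3, had an unadjusted limma p under 0.05, at 0.0259 and 0.0435, beside 1.21% of all genes. Without control replicate 3, 9 were positive with a median of 0.05, without mutant replicate 3, 10 were positive, and with limma array weights 4 were, with a median of -0.04. The cone genes were not tested against the rod genes, so a difference between these lists is not shown. Gngt2, the cone counterpart of Gngt1, measured 68.9, 64.4 and 85.3 FPKM in mutant replicates 1, 2 and 3, against 58.2, 52.7 and 29.0 FPKM in control replicates 1, 2 and 3. Its groups did not overlap, the log2 difference was 0.68 with a standard error of 0.249, and the limma adjusted p was 0.9998. Without control replicate 3 the difference was 0.38. As with Gngt1, mutant replicate 3 was highest and control replicate 3 lowest. Arr3, the cone arrestin, differed by 0.29, Pde6c, the cone phosphodiesterase, by 0.26 and Slc24a2, a calcium exchanger, by 0.23. Among the highest, Gnb3, the cone transducin beta subunit, which bipolar cells make too, measured 232 ± 21.3 FPKM in mutants and 213 ± 36.6 FPKM in controls, and Opn1sw, the short-wave cone pigment, 45.9 ± 4.79 FPKM in mutants and 43.3 ± 12.1 FPKM in controls (SD, n = 3 each).

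Markers of other retinal cell types were present as well. The mean log2(FPKM + 1) of bipolar markers was 4.74 to 4.86 in mutants and 4.40 to 4.86 in controls, and that of Muller glia markers 4.74 to 4.92 in mutants and 4.59 to 4.99 in controls. Both had their lowest value in control replicate 3, as 8 of the 9 rod genes had, and their part in the rod values was not tested. Amacrine and horizontal cell markers stood at 2.56 to 2.81 in mutants and 2.67 to 2.77 in controls, ganglion cell markers at 1.81 to 2.33 in mutants and 1.74 to 2.12 in controls, and astrocyte markers at 1.80 to 2.12 in mutants and 1.86 to 1.99 in controls. For these 3 lists control replicate 3 was not the lowest library.

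Among 7557 genes with a mean of at least 10 FPKM outside the 9, those closest to the mean standardized rod profile over the 6 libraries included Atp5o, Mocs2, Mrpl49, Ccdc126, Tceal1, Ugdh, Tmx1, Mcu and Napg, with Pearson's r from 0.993 to 0.9997. Atp5o, a subunit of mitochondrial ATP synthase, averaged 134 FPKM in mutants and 127 FPKM in controls. The farthest were Ggcx, Zdhhc18, AI846148, Tbc1d22a and Ttc7b, with r from -0.997 to -0.983. They are the extremes of 7557 correlations over 6 libraries and are given as a description.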

How the data were processed

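Libraries from 3 mutant and 3 control samples were made with a TruSeq RNA kit, as the labels' protocols say. A single deposited table, made by the authors, holds FPKM values, with 1 column per library and 24421 rows. STAR 2.5.0b, bedtools 2.17.0, Cufflinks 2.2.1, DESeq2 and mm10 are named in the submitters' processing notes, without roles, and the annotation is not given in the sources used here. Of the rows, 27 carry a date in place of a symbol and 2 symbols occur more than once; none is a gene followed here. The 9 rod genes and all lists were chosen with earlier results of these data known.

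FPKM were tested as log2(FPKM + 1) with limma 3.58.1 (R 4.3.3), with a trended prior and no block, on the 13622 genes that reached 1 FPKM in 3 or more libraries. Tests were two-sided, with Benjamini-Hochberg adjustment over all genes and a threshold of 0.05. A fold on this scale understates the change of low genes. P-values rest on how far these libraries vary, which may be technical. Whole reads were recovered from FPKM steps for 100% of 16491 rows above 0 in every library (tolerance 0.002). They are the smallest whole numbers that fit the scaling depth, so a gene's true number may be higher. That depth need not be the total of reads. In mutant replicate 1 the recovered reads summed to 21377288, above its depth of 21062142, and control replicates 1 and 3 also exceeded theirs. Limma voom on the recovered reads called 0 of 13494 genes, with 106 at an unadjusted p under 0.05. Correlations with endothelial content were computed for all 13622 genes over the 720 pairings of the 6 libraries. Promoter windows came from RefSeq. Calculations used Python 3.11.15, numpy 2.4.6, pandas 2.3.3, scipy 1.17.1 and matplotlib 3.10.9. The fit was tested on simulated data.

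Besides the 9 rod genes, the text names Pecam1, Cdh5, Cldn5 and Anxa3, up to 4 genes with the smallest unadjusted p and the 3 with the highest mean FPKM of each photoreceptor list, and the 10 genes most and 5 least like the rod profile. Some genes that this rule picks are not reported here. Alternatives were another pseudocount, no filter, quantile and median-of-ratios scaling, blocks by replicate number and by letter (A to C against D to F, a division the labels do not give), an endothelial covariate, voom, array weights, and each library left out in turn.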

Additional observations from a re-analysis of the deposited data

How the results depend on the processing

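No rod gene was called under any alternative, and 0 genes in all were called except with array weights, which called 145. The directions of the small differences changed as follows, all as log2 mutant minus control. With the letter block, Gnat1 was at 0.10 and Pde6a at 0.13. With quantile scaling, Sag was at -0.12 and Prph2 at -0.035. With the endothelial covariate, Cnga1 was at -0.0136, Rcvrn at -0.046 and Prph2 at -0.0513. Cldn5 was then at 0.16, Pecam1 at -0.10 and Cdh5 at -0.05. The covariate is the mean of these 3 endothelial genes, so their differences in that fit must balance around 0. The sign of Cldn5 there is no separate result. Array weights were highest for mutant replicate 2 and control replicate 2 (6.999 and 3.346). They were 0.7455 for mutant replicate 3 and 0.7473 for control replicate 1, and lowest for mutant replicate 1 and control replicate 3 (0.295 and 0.260). That fit thus leaned mainly on 1 library per group. With array weights, Pde6b was at -0.0249, Pde6g at -0.0432, Cnga1 at -0.0532 and Sag at -0.14. Rcvrn was then at -0.26, Prph2 at -0.27, Cdh5 at 0.0905 and Cldn5 at 0.31. The cause of these changes was not tested. Gnat1 and Pde6a stayed negative with array weights, at -0.35 (limma adjusted p = 0.0736) and -0.29 (limma adjusted p = 0.0890). Gngt1 stayed positive, at 0.35 (limma adjusted p = 0.190). The value of Gnat1 was the smallest adjusted p of a rod gene under any alternative. Under array weights 4 of 11 cone genes were positive, against 11 of 11 without weights.

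Leaving out 1 library at a time gave differences of -0.27 to 0.0614 for Gnat1, 0.20 to 0.83 for Gngt1, -0.26 to 0.0734 for Pde6a, -0.0291 to 0.21 for Pde6b, 0.01 to 0.32 for Pde6g, -0.12 to 0.23 for Cnga1, -0.10 to 0.20 for Sag, -0.14 to 0.15 for Rcvrn and -0.15 to 0.11 for Prph2. The ranges were -0.43 to 0.0777 for Pecam1, -0.42 to 0.14 for Cdh5 and -0.28 to 0.36 for Cldn5. The mean of the 9 ran from -0.08 to 0.24, and their excess over the endothelial level differed by -0.27 to 0.53.

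Same-numbered mutant and control libraries had deviations correlated at 0.249, -0.151 and 0.391, beside -0.352 to 0.231 for libraries of unlike number. Deviations from a mean of 3 libraries are tied to one another, so these values cannot decide whether the numbers pair the samples. The labels do not say that they do. With the replicate block, the mean difference of the 9 was 0.10, and 0 genes were called, with 296 at an unadjusted p under 0.05. Reads of the rod genes numbered at least 884 in each library, and each group had 3 libraries.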

Other observations

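Genes closest to Gngt1 over the 6 libraries, looked up after its values were seen, were Cox20, Vti1b, Cox6a1, Atpif1 and Pdap1, with Pearson's r of 0.98 to 0.99 on the log2(FPKM + 1) scale. They are the extremes among all other genes with a mean of at least 10 FPKM and are given as a description. A shared function of these genes was not tested. Cox6a1, a subunit of cytochrome c oxidase, averaged 107 FPKM in mutants and 101 FPKM in controls. Cox20, an assembly factor of the same enzyme, averaged 31.7 FPKM in mutants and 28.6 FPKM in controls.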
